A study of Gallus gallus with 6 samples.

Results

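The genes described here are the yolk precursor genes that a hen's liver makes under estrogen, vitellogenin 1 (VTG1, NCBI Gene ID 424547), vitellogenin 2 (VTG2, 424533) and apovitellenin 1 (APOV1, 396476), together with estrogen receptor 1 (ESR1, 396099), through which liver cells respond to the hormone. The members were found by their symbols in a RefSeq gene table of chicken and matched by NCBI Gene ID, and all 4 had a row among the 20498 genes of the FPKM table. Liver mRNA was sequenced from F1 males of the dwarf Jingxing-Huang (JXH) line at 36 weeks of age, 3 of them birds of the paternal inheritance group whose livers were fatty and 3 of them control birds whose livers were not, with 1 library per bird. The parent birds of the paternal group were given a high-fat diet. Their livers were examined at slaughter, and only sires with fatty liver and dams without it were kept for this group. Sires and dams of the control group were normal birds on the basal diet, and all F1 birds received the basal diet. Phenotype and group were the same split of the birds, so they cannot be told apart in these libraries.

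In laying hens, estradiol from the ovarian follicles enters hepatocytes, binds ESR1 and switches on transcription of the vitellogenins and APOV1. The vitellogenins are large lipid-binding phosphoproteins that oocytes take up and cut into the lipovitellins and phosvitin of yolk, and APOV1 is a small protein of very low-density lipoprotein (VLDL) that protects the particle from lipoprotein lipase on its way to the yolk. Roosters carry the same genes in a nearly silent state, and their liver is known to make yolk precursors when given estrogen.

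Expression is given in FPKM, which scales the fragments of a gene by its length and by the mapped fragments of the library, and the number of fragments of each gene was recovered from these values. The libraries held between 8860634 and 10403637 fragments. A library with 3 fragments or fewer of a gene was taken as being at the floor, which for VTG1 was between 0.0485 and 0.0569 FPKM and for APOV1, whose transcript is shorter, between 0.398 and 0.467 FPKM. The tissue was checked by marker genes. The summed level of 10 hepatocyte markers was between 128730 and 139350 FPKM in fatty liver and between 125900 and 156680 FPKM in control livers, and of 9 oviduct and ovary markers 5 were at or under the floor in every library, among them ovalbumin (OVAL) at 0 in all of them. HINTW, a gene of the female-specific W chromosome, was at 0 in all 6 libraries. Of 41 genes that the RefSeq table places on W, 3 were above the floor (MBD2, NEDD4L and SKA1), and the sum over the W genes was between 77.4 and 93.2 FPKM in fatty liver and between 85.9 and 104 FPKM in control, most of it from MBD2. The summed level of the leukocyte markers varied most among birds of 1 group, between 187 and 824 FPKM in fatty liver and between 267 and 551 FPKM in control, and SOX9 among the cholangiocyte markers was the only marker called between the groups (log2 fold change 1.55, adjusted p = 0.038 in limma), although the summed cholangiocyte markers overlapped. The part of these markers in the results was not tested.

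APOV1 was detected in 2 of the 3 birds with fatty liver and in no control bird, and VTG1 and VTG2 were above the floor in a single bird, fatty liver replicate 2. APOV1 had 0, 36 and 5 fragments in fatty liver replicates 1, 2 and 3, or 0, 5.16 and 0.685 FPKM, against 0 fragments in each of the 3 control birds. In replicate 2 the 95% Poisson interval of the count was 25.2 to 49.8 fragments, and in replicate 3 it was 1.62 to 11.7 fragments. An exact interval of this kind covers counting error only, and that of a count of 0 reached 3.69 fragments. The mean in fatty liver was 1.95 ± 2.80 FPKM (SD, n = 3). It was 4.52 times the floor of 3 fragments averaged over the control libraries, which is not a lower bound of the difference. The mean in fatty liver rested on 1 bird. Without fatty liver replicate 2 it was 0.342 FPKM, which is under the floor. The groups overlapped at 0. A two-sided exact permutation test gave p = 0.4, where 0.1 is the smallest p that 3 birds against 3 allow, so it could not reach 0.05. The tissue was sequenced in bulk, so a change in the number of cells that express a gene and a change in RNA per cell cannot be told apart.

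VTG2, which in hens is the most abundant vitellogenin, had 0, 18 and 0 fragments in fatty liver replicates 1, 2 and 3, or 0, 0.336 and 0 FPKM, and 2, 3 and 3 fragments in control replicates 1, 2 and 3, or 0.0345, 0.0608 and 0.0558 FPKM. Fatty liver replicate 2 was thus above every other bird, while the other birds with fatty liver, at 0, were not distinguishable from the control birds, which were all at or under the floor. The interval of the 18 fragments was 10.7 to 28.4, and the intervals of the control birds reached up to 8.77 fragments. The means were 0.112 ± 0.194 FPKM in fatty liver and 0.0504 ± 0.0139 FPKM in control (SD, n = 3 each), and the exact permutation p was 1. Without fatty liver replicate 2 the mean in fatty liver was 0.

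VTG1 had 2, 6 and 2 fragments in fatty liver replicates 1, 2 and 3, or 0.0336, 0.105 and 0.0334 FPKM. In control replicates 1, 2 and 3 it had 1, 3 and 2 fragments, or 0.0162, 0.0569 and 0.0348 FPKM. The highest value again belonged to fatty liver replicate 2 and was the only value above the floor. Its interval, 2.20 to 13.1 fragments, overlapped those of all other birds. The means were 0.0572 ± 0.0411 FPKM in fatty liver and 0.0359 ± 0.0204 FPKM in control (SD, n = 3 each; exact permutation test, p = 0.7). The third vitellogenin gene of the chicken, VTG3, had 1 fragment in fatty liver replicate 2 and 0 fragments in the other 5 birds, so that it was at the floor throughout.

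**Figure D1:**
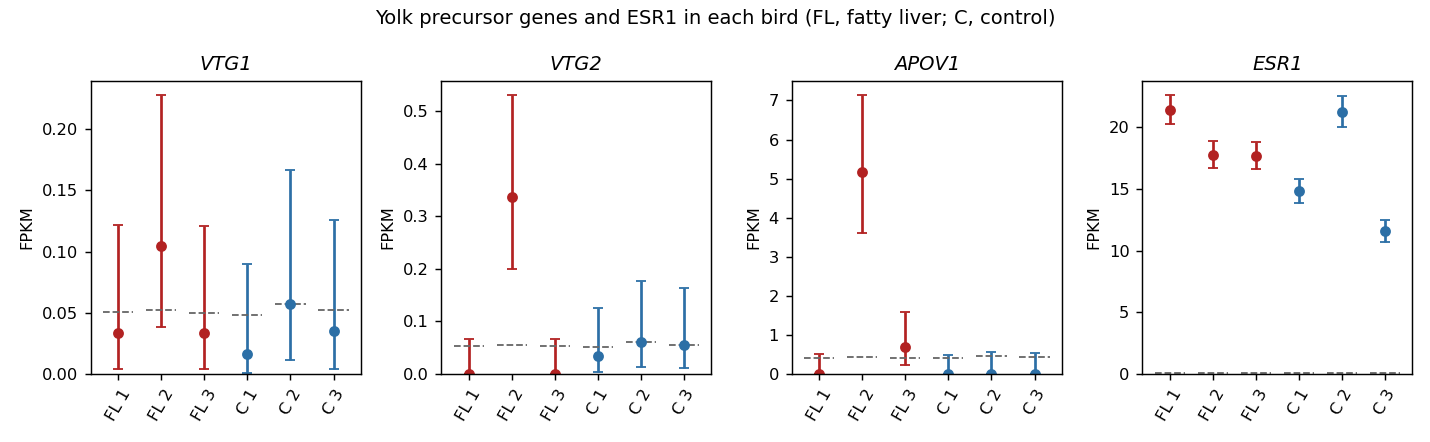
FPKM of VTG1, VTG2, APOV1 and ESR1 in each bird, with fatty liver birds in red on the left and control birds in blue on the right; points are single libraries, vertical bars 95% Poisson intervals of the fragments (counting error only) and dashed lines the floor of 3 fragments in that library. Fatty liver replicate 2 stands alone for VTG2 (0.336 FPKM) and APOV1 (5.16 FPKM), whereas ESR1 lies between 11.6 and 21.4 FPKM in all 6 birds.

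Over the 3 yolk genes and 6 birds, 6 of the 18 values were 0 and 4 were above the floor. Fatty liver replicates 1, 2 and 3 held 2, 60 and 7 fragments of these genes, and control replicates 1, 2 and 3 held 3, 6 and 5. Fatty liver replicate 2 thus held 72.3% of all 83 fragments, although it was the shallowest of the fatty liver libraries with 9628492 fragments in all. The other birds with fatty liver were on both sides of the control birds. None of the 3 genes reached the mean of 1 FPKM that was required for the test across genes, which left them without a moderated statistic. When that filter was dropped and all 17185 genes above 0 were fitted with limma, the adjusted p was 0.83 for VTG1, 0.85 for VTG2 and 0.51 for APOV1. A rise of the yolk genes with fatty liver was therefore not detectable in these birds, while a value above the floor was measured in fatty liver replicate 2 for each of them.

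In terms of annotation, APOV1 overlaps ILDR1 in the RefSeq table, and the library kit does not mark the strand, so fragments of overlapping parts could be counted for either gene. ILDR1 was expressed in every bird, at 3.41, 4.21 and 3.78 FPKM in fatty liver replicates 1, 2 and 3 and at 1.88, 4.13 and 2.23 FPKM in control replicates 1, 2 and 3. APOV1 was at 0 in 4 of these birds. How fragments were assigned between APOV1 and ILDR1 was not tested. VTG1 and VTG2 each overlap a long non-coding RNA gene (LOC107053992 and LOC121111362) that had no row of its own. How fragments shared by the related VTG genes were assigned is not given in the sources used here.

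ESR1 itself was well expressed in male liver. It had 21.4, 17.8 and 17.7 FPKM in fatty liver replicates 1, 2 and 3, on 1288, 1030 and 1072 fragments, and 14.8, 21.3 and 11.6 FPKM in control replicates 1, 2 and 3, on 926, 1134 and 672 fragments. Control replicate 2 was nearly as high as the highest bird with fatty liver, so the groups overlapped. Within each library ESR1 ranked above between 66.8% and 77.4% of the tested genes by FPKM. The 3 birds with fatty liver lay closer together, with the highest 1.21 times the lowest, than the control birds, in which the highest was 1.84 times the lowest. The bird with the most yolk fragments, fatty liver replicate 2, had an intermediate ESR1 level among the 6 birds.

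The means of ESR1 were 19.0 ± 2.13 FPKM in fatty liver and 15.9 ± 4.95 FPKM in control (SD, n = 3 each). The log2 fold change of FPKM + 1 was 0.28 (standard error 0.23, 95% interval -0.24 to 0.80), with an adjusted p of 0.59 in limma over 10886 tested genes and an exact permutation p of 0.4. The interval allows a fall as well as a rise. Among the tested genes 124 (1.14%) passed an adjusted p of 0.05, of which 92 (0.845%) were higher and 32 (0.294%) lower in fatty liver, and the log2 fold changes of the tested genes had a median of 0.12. Scaling each library to its summed FPKM outside the 50 most abundant genes moved that median to -0.01. The called genes became 44 higher and 40 lower, and the log2 fold change of ESR1 became 0.12. The value also depended on single control birds, since it was 0.50 without control replicate 2 (adjusted p = 0.23) and 0.08 without control replicate 3 (adjusted p = 0.90).

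The 4 members thus fell in 1 order of level per length in the bird with the most yolk fragments, fatty liver replicate 2, with ESR1 at 17.8 FPKM, APOV1 at 5.16, VTG2 at 0.336 and VTG1 at 0.105 FPKM. The Poisson intervals of VTG2 (0.199 to 0.531 FPKM) and VTG1 (0.0384 to 0.228 FPKM) overlapped, and those of the other neighbours in this order did not. In the other 5 birds ESR1 was the only member that was clearly above the floor. Apart from APOV1 in fatty liver replicate 3 at 0.685 FPKM, all their yolk gene values were at or under it.

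**Figure D2:**
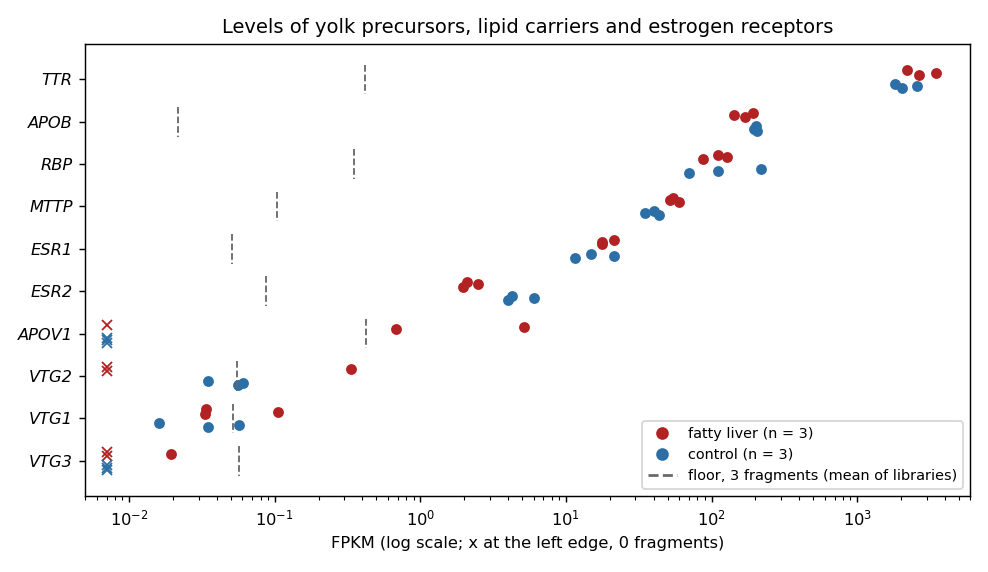
Levels in FPKM on a log axis for yolk precursors, lipid and vitamin carriers and estrogen receptors; each point is 1 bird (red, fatty liver; blue, control; n = 3 each), crosses at the left edge are values of 0 and dashed lines mark the floor of 3 fragments averaged over the libraries. TTR is at 1828 FPKM or higher in every bird, whereas VTG1 and VTG3 are at or near the floor.

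To place the yolk genes, other precursors of yolk and egg envelope from the hen's liver were examined, together with MTTP and HDLBP, whose products act inside cells. Of these 10 genes measured, 8 were tested and none passed the threshold in limma, against 1.14% of all tested genes. With FPKM as deposited, MTTP alone had an unadjusted p under 0.05, as had 16.3% of all tested genes. Which of the 8 had such a p changed when the libraries were rescaled. Apolipoprotein B (APOB), the structural protein of VLDL and of yolk lipoprotein, had 192, 142 and 169 FPKM in fatty liver replicates 1, 2 and 3 against 201, 197 and 206 FPKM in control replicates 1, 2 and 3. All birds with fatty liver were below all control birds, as was the case for 4.78% of the tested genes, but the log2 fold change was -0.27 with an adjusted p of 0.46 (limma), and fatty liver replicate 2, the highest bird for VTG2 and APOV1, was the lowest for APOB. The microsomal triglyceride transfer protein gene (MTTP), whose product loads lipid onto APOB, had 54.7, 52.1 and 59.6 FPKM in fatty liver replicates 1, 2 and 3 against 40.0, 34.9 and 43.5 FPKM in control replicates 1, 2 and 3. Here all birds with fatty liver were above all control birds, as in 18.3% of the tested genes, and the adjusted p was 0.19 (log2 fold change 0.48).

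Riboflavin-binding protein (RBP) and transthyretin (TTR), carriers of a vitamin and of thyroid hormone, also enter yolk. Both genes were expressed in all birds at levels far above the vitellogenins. RBP averaged 108 ± 19.9 FPKM in fatty liver and 133 ± 76.9 FPKM in control (SD, n = 3 each), with overlapping groups and an adjusted p of 0.89 in limma. TTR averaged 2787 ± 664 FPKM in fatty liver and 2152 ± 392 FPKM in control (SD, n = 3 each; limma, adjusted p = 0.46). Fatty liver replicate 2, the lowest bird for APOB, was the highest for TTR at 3506 FPKM. For RBP, at 127 FPKM, it was exceeded only by control replicate 1 at 218 FPKM. Both genes are induced or made in hen liver for the egg, and the males of both groups expressed them while VTG1, VTG2 and VTG3 remained near 0.

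ESR2, the second nuclear estrogen receptor, had 2.10, 2.48 and 1.97 FPKM in fatty liver replicates 1, 2 and 3 and 4.26, 6.03 and 4.02 FPKM in control replicates 1, 2 and 3. All birds with fatty liver were below all control birds, as was the case for 4.78% of the tested genes. The log2 fold change of ESR2 was -0.84 (standard error 0.18, adjusted p = 0.077 in limma), which did not pass the threshold. ESR2 passed in 1 of 14 alternative settings, voom on the fragments (log2 fold change -1.26, adjusted p = 0.042). The adjusted p over all of these settings lay between 0.042 and 0.24. ESR2 overlaps MTHFD1, a folate enzyme gene with far more fragments, in the RefSeq table, and MTHFD1 fell too, to 157, 128 and 133 FPKM in fatty liver replicates 1, 2 and 3 against 292, 259 and 257 FPKM in control replicates 1, 2 and 3 (log2 fold change -0.95, adjusted p = 0.038). The level of ESR2 was 1.34%, 1.94% and 1.48% of that of MTHFD1 in fatty liver replicates 1, 2 and 3 and 1.46%, 2.33% and 1.57% in control replicates 1, 2 and 3, and these shares overlapped. Without strand information, fragments of overlapping parts could be counted for either gene. The overlap is of whole gene spans, and neither overlap of exons nor the assignment of fragments between ESR2 and MTHFD1 was tested. Whether the lower ESR2 value in fatty liver comes from ESR2 was therefore not tested.

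**Figure D3:**
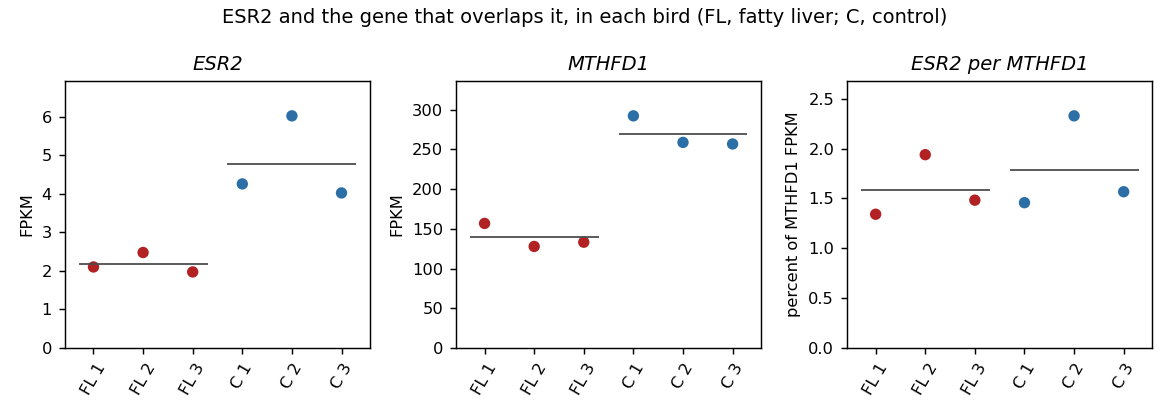
FPKM of ESR2, FPKM of the overlapping gene MTHFD1 and ESR2 as a percentage of MTHFD1 in each bird, with fatty liver birds in red on the left and control birds in blue on the right; horizontal lines are group means (n = 3 each). Both genes are lower in all birds with fatty liver, as are 4.78% of the tested genes. The percentages of ESR2 relative to MTHFD1, 1.34% to 1.94% in fatty liver and 1.46% to 2.33% in control, overlap.

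Estrogens can be made, activated or cleared locally, and the genes for these steps were compared as well. CYP19A1, the aromatase that makes estrogen from androgen, was at 0 in all 6 birds. Of 12 genes of estrogen synthesis and clearance that were measured, 8 were tested, 1 rose (12.5%, against 1.14% of all tested genes), none fell and 7 did not pass the threshold. An unadjusted p under 0.05 was found for 5 of the 8, against 16.3% of all tested genes, and the groups were separated in 4 of the 8, 2 of them higher and 2 lower in fatty liver, against 23% of all tested genes. The gene that rose was HSD17B12, with 150 ± 4.38 FPKM in fatty liver and 73.1 ± 11.1 FPKM in control (SD, n = 3 each; log2 fold change 1.04, standard error 0.16, adjusted p = 0.035). HSD17B12 can act on estrogens, but its main known role is a reduction step in the elongation of long-chain fatty acids. Its call was lost in 10 of 14 alternative settings, in which its log2 fold change stayed positive, and the adjusted p over all of them lay between 0.037 and 0.13. HSD17B1, which converts estrone to estradiol, had 1.63, 2.36 and 1.89 FPKM in fatty liver replicates 1, 2 and 3, on 18 to 25 fragments, and 4.10, 5.94 and 3.66 FPKM in control replicates 1, 2 and 3, on 39 to 58 fragments. Its groups did not overlap, and its adjusted p was 0.082 (log2 fold change -0.90). SULT1E1, an estrogen sulfotransferase that inactivates the hormone, averaged 83.5 ± 11.2 FPKM in fatty liver and 52.6 ± 11.2 FPKM in control (SD, n = 3 each), also without overlap, and its adjusted p was 0.17 (log2 fold change 0.67).

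The estrogen pathway list was written from general knowledge of the pathway, with earlier results of these data known. Over the whole list, 55 of 60 names were found in the table as separate genes and 39 passed the filter. HSD17B12 was the only one called, which is 2.56% of the 39 against 1.14% of all tested genes, and 8 of the 39 had an unadjusted p under 0.05, as had 16.3% of all tested genes. Fatty liver and control birds were fully separated in 8 of the 39 (20.5%), 3 of them higher and 5 lower in fatty liver, against 23% of all tested genes. The median log2 fold change of the list was 0.00, with 19 genes above 0 and 20 below it, against 0.12 over all tested genes. This near-even split was that of FPKM as deposited and changed when the libraries were rescaled. None of the 14 coregulators and pioneer factors through which ESR1 acts on chromatin was called by limma, none had an unadjusted p under 0.05, and their log2 fold changes lay between -0.14 and 0.37. Of 5 genes of yolk uptake and processing and 8 egg white genes measured, 3 each were tested and none was called or had an unadjusted p under 0.05.

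**Figure D4:**
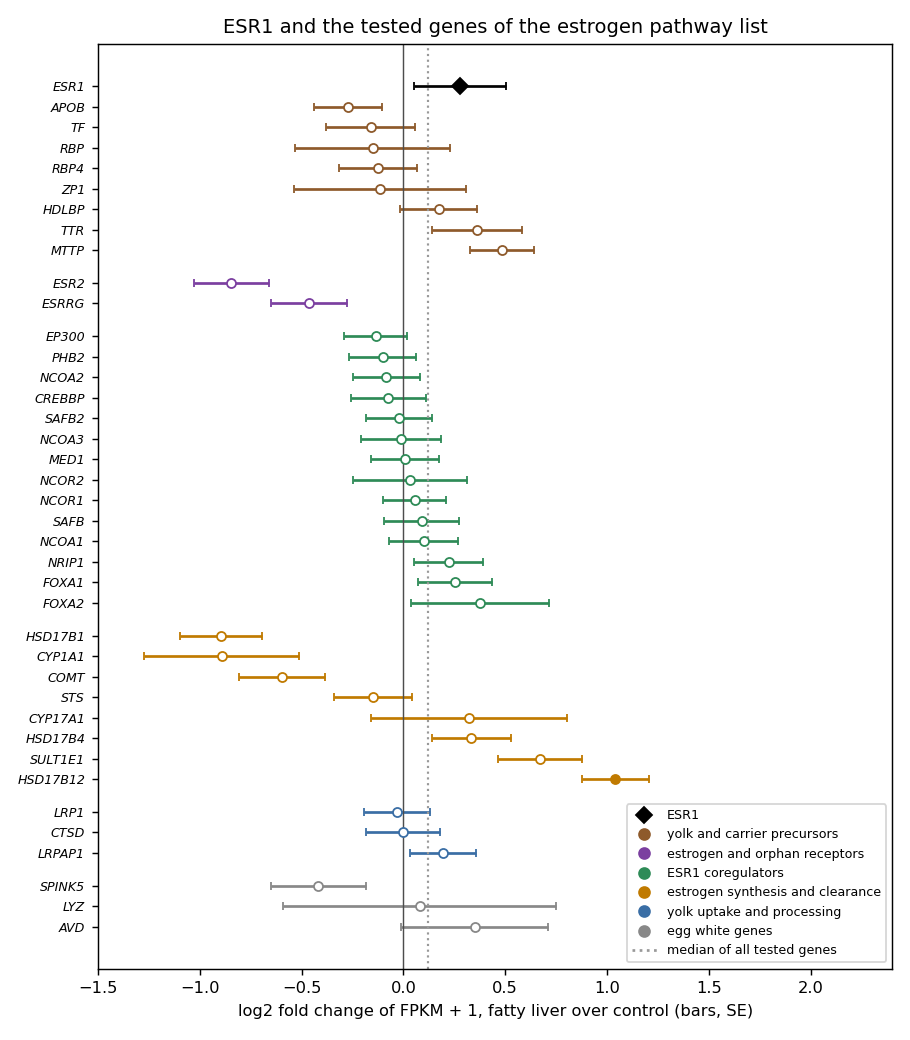
Log2 fold change of FPKM + 1 (fatty liver over control) with its standard error for ESR1 and the tested genes of the estrogen pathway list except 1 that is not reported here, grouped and coloured by role; the filled circle passed an adjusted p of 0.05 in limma and the dotted line is the median of all tested genes, 0.12. HSD17B12 at 1.04 is the only filled circle, and ESR1 lies at 0.28.

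The genes whose level followed that of ESR1 most closely over the 6 birds were NDUFS6, a subunit of respiratory complex I, ZNF767, NUP85, a component of the nuclear pore, APEH, a peptidase, and NAT, an acetyltransferase. Their Pearson correlations with ESR1 on the log2 scale were 0.997, 0.993, 0.991, 0.991 and 0.99. These are the highest of 10885 genes over 6 libraries that share their groups and their scaling, and they are given as a description. VTG1, VTG2 and APOV1 were not among the genes compared, since they did not pass the filter.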

How the data were processed

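Reads were filtered by the authors with Sickle and SeqPrep and mapped to the chicken assembly Gallus_gallus_5.0, and the authors deposited FPKM per gene and library with no further scaling stated. The aligner, the counting tool and the gene annotation are not given in the sources used here. All 6 columns were used. Symbols came from a RefSeq table of the later assembly GRCg7b, which matched 16332 of 20498 IDs and served for names, overlaps and the W chromosome only.

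Fragments were worked out as the whole numbers that, with a whole gene length and library total, give back the FPKM. They returned 100% of the values within a relative error of 1e-05, and the procedure was tested on simulated data. For FPKM, limma 3.58.1 (R 4.3.3) was run on log2(FPKM + 1) over the 10886 genes that averaged 1 FPKM or more, with a mean-variance trend, no covariate and Benjamini-Hochberg adjustment at 0.05, and was also tested on simulated data. The test behind the study's own RNA-seq calls is not given in the sources used here. Motif searches were not run and no sequences are shown. Single genes were compared by two-sided exact permutation tests on FPKM with scipy 1.17.1, without adjustment. Log2 fold changes understate low genes. Members and lists were chosen with earlier results of these data known, and the lists by role were written by hand. Named are the members, list genes that passed the threshold and up to 10 others of the list, 1 of which is not reported here though counted in the list, with MTHFD1 and ILDR1 added after overlaps were seen. Nothing states how the birds within a group were related, whereas the tests behind the p-values treat them as independent. Same-numbered birds are different animals, with correlations of their deviations of 0.0249, 0.045 and 0.0485. The library kit does not mark strand.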

Additional observations from a re-analysis of the deposited data

How the results depend on the processing

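The alternatives were no filter on low values, a pseudocount of 0.1, scaling libraries to 1 common median, quantile normalization, rescaling without the 50 most abundant genes, no trend, voom on the fragments, the replicate block and each library left out. ESR1 was not called under any of these 14 settings. Its log2 fold change lay between 0.08 and 0.50 when a library was left out and between 0.12 and 0.29 otherwise, with adjusted p between 0.23 and 0.90.

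The log2 fold changes of the yolk genes rested on the pseudocount and on fatty liver replicate 2. With a pseudocount of 0.1 the value was 0.19 for VTG1 and 2.90 for APOV1. Over the libraries left out it lay between -0.0032 and 0.04 for VTG1, between -0.07 and 0.14 for VTG2 and between 0.38 and 1.69 for APOV1, each lowest without fatty liver replicate 2. Voom was run on the genes that passed the filter and gave no value for these 3.

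The number of genes called was 30 without the filter, 79 with libraries scaled to the same median, and between 22 and 119 with a library left out, with 24 without fatty liver replicate 2, 22 without fatty liver replicate 3, 77 without control replicate 1 and 36 without control replicate 2. Of the estrogen pathway list, 0 genes were called without the filter, under same-median scaling, quantile normalization and rescaling, and between 0 and 1 with a library left out (limma, against 8 at an unadjusted p under 0.05 in the reported fit). The median of the list was -0.11 under same-median scaling, -0.12 under quantile normalization, -0.13 under rescaling and -0.15 with voom. That of all tested genes was near 0 in each of these settings. Of the 39 tested genes of the list, 13, 12, 13 and 13 were above 0 in them, against 19 in the reported fit. RBP lay between -0.53 and 0.29 with a library left out and was positive without control replicate 1. The unadjusted limma p of APOB was 0.034 under same-median scaling, 0.021 under quantile normalization and 0.028 under rescaling. That of MTTP was 0.088, 0.11 and 0.081 in these settings. Neither gene was called in any alternative setting, with a lowest adjusted p of 0.22 for APOB and 0.19 for MTTP.

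Same-numbered birds were not paired by design. A fit with the replicate block called 140 genes and 1 gene of the list. At this depth, differences in the vitellogenins of a few fragments per library could not be detected.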

Other observations

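High values in a single bird were not confined to the yolk genes or to fatty liver replicate 2. By a rule chosen after the values were seen, a gene counted as held by 1 library when it had at least 10 fragments there and at least 5 times the FPKM of the next library. Fatty liver replicates 1, 2 and 3 held 13, 13 and 14 such genes, and control replicates 1, 2 and 3 held 7, 13 and 9. These counts are out of 17185 genes above 0 in a library. APOV1 and VTG2, 2 of the 3 yolk genes, were among the 13 of fatty liver replicate 2. VTG2 passed the rule narrowly, with 0.336 FPKM there against 0.0608 FPKM in the next library, control replicate 2. CTSEAL, which the list places among the hen liver precursors, also met the rule, but in control replicate 2. It had 3, 3 and 3 fragments in fatty liver replicates 1, 2 and 3 and 1, 38 and 0 fragments in control replicates 1, 2 and 3. Its level was 2.11 FPKM in control replicate 2 and at most 0.153 FPKM in the other birds. CTSEAL and ZP1 are singled out here after their values were seen. ZP1, an egg envelope protein that the hen's liver makes under estrogen, was highest in fatty liver replicate 3. It had 11, 13 and 100 fragments in fatty liver replicates 1, 2 and 3 and 26, 33 and 49 fragments in control replicates 1, 2 and 3, or 0.35, 0.429 and 3.15 FPKM in fatty liver and 0.794, 1.18 and 1.61 FPKM in control. The groups overlapped, and the adjusted p was 0.92 (limma, log2 fold change -0.12). For ZP1 the direction depended on single birds, since the log2 fold change was -0.64 without fatty liver replicate 3 (adjusted p = 0.39), and it was positive without fatty liver replicate 1 (0.17), without fatty liver replicate 2 (0.13) and without control replicate 3 (0.02). With voom it was -0.66 (adjusted p = 0.72).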
